A study of Mus musculus with 8 samples.

Results

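The SLC26 anion exchangers are a family of membrane transporters, and 10 of its mouse genes are described here across 8 RNA libraries of MIN6 cells, an insulin-producing line from a mouse pancreatic tumour. The members are Slc26a1, Slc26a2, Slc26a3, Slc26a4, Slc26a5, Slc26a6, Slc26a7, Slc26a8, Slc26a9 and Slc26a11, found by symbol among 55536 genes. Another gene with an Slc26a symbol, Slc26a10, is not a member. The family was selected on the counts of Slc26a4 in control against Klf4-transfected libraries, where it was among the strongest responders, so its members' values in that comparison are given as a description, without a test.

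Control cells (4 libraries) were transfected with the empty vector pcDNA 3, and Klf4-transfected cells (4 libraries) received pGloMyc-Klf4, which expresses the zinc-finger transcription factor Klf4. All cells were of genotype WT and were transfected for 48 h with Lipofectamine 3000, a lipid carrier of plasmid DNA, before polyadenylated RNA was sequenced. The plasmids carry different backbone names, so the effects of Klf4 and of the backbone cannot be told apart. Replicates 1 and 2 of each group were labelled batch 1 and replicates 3 and 4 batch 2, and the series text calls the replicates biological. The labels' extraction text names islets, while each sample is named Min6.

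SLC26 proteins move chloride, bicarbonate, iodide, sulfate, oxalate and related anions across membranes, mostly by exchanging one anion for another. Several work at the apical face of epithelia, where they help secrete bicarbonate or take up chloride, and in the pancreas Slc26a3 and Slc26a6 are best known from the ducts, not the islets. Slc26a4 encodes pendrin, the exchanger of chloride for bicarbonate or iodide in the inner ear, the thyroid and the intercalated cells of the kidney. Slc26a5 encodes prestin, which drives the length changes of cochlear outer hair cells instead of carrying anions at a high rate.

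The 250 bases before the start sites of Slc26a4 and Slc26a9 are shown because these were the members with next to no counts in control libraries whose Klf4-transfected libraries all held more. Sequences are from RefSeq on GRCm38.p6, 5′ to 3′ on each gene's own strand, at chr12:31559985-31560234 (minus strand) for Slc26a4 and chr1:131743772-131744021 (plus strand) for Slc26a9. Capitals mark 3 motifs read on both strands: CACCC, the core of the boxes that KLF factors bind, AAACA, the core of forkhead factor sites, and TATAAA, the TATA box.
Slc26a4: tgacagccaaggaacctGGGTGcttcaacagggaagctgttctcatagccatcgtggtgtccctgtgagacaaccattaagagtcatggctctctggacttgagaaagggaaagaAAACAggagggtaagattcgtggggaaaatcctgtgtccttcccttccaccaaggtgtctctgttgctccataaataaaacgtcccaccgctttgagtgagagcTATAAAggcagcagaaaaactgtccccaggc
Slc26a9: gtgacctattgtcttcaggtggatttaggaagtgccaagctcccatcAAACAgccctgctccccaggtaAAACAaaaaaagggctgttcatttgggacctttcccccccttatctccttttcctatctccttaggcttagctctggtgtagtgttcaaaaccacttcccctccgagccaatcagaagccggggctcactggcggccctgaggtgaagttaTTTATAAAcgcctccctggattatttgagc

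In the Slc26a4 window CACCC was read on the opposite strand, 233 to 229 bases before the start, AAACA lay 135 to 131 bases before it, and TATAAA lay 31 to 26 bases before it. The Slc26a9 window held no CACCC. It held AAACA at 203 and at 181 bases before the start, and TATAAA on both strands at 30 and 28 bases, where the copies overlap. Of 32851 RefSeq promoter windows of the same length, 52.0% held CACCC, 46.4% held AAACA and 12.4% held TATAAA, so the first and second of these motifs are common. Promoter entries matched 7 of the 10 members, and Slc26a2, Slc26a7 and Slc26a11 had no match. The Slc26a3 window also held TATAAA, 30 bases before the start, and CACCC on the opposite strand at 203 bases. CACCC also lay in windows of Slc26a1, Slc26a5, Slc26a6 and Slc26a8, and AAACA in windows of Slc26a1 and Slc26a5. A window of Slc26a1 held TATAAA as well, on the opposite strand at 240 bases.

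Libraries held between 45417853 and 52731176 counts. Klf4 itself, the transfected gene, had 2014, 2060, 1929 and 1743 counts in control replicates 1 to 4 and 251826, 205171, 257862 and 308667 counts in the Klf4-transfected replicates, so every library matched its label. Scaled to library size with TMM factors, that was 40.1 ± 3.11 CPM in control cells against 5040 ± 567 CPM with the plasmid (SD, n = 4). Markers of the β cell summed to between 25306 and 32061 CPM in control and between 23628 and 32318 CPM in Klf4-transfected libraries. Of all 18266 genes that passed the filter on low counts, 21.1% were called higher and 15.5% lower with the Klf4 plasmid, where a call means a Benjamini-Hochberg adjusted p below 0.05 in the quasi-likelihood test of edgeR. P-values measure the spread between these libraries only.

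Slc26a4 went from the edge of detection in control cells to the highest level per length of any member in Klf4-transfected cells. The gene lies on chromosome 12, from 31519827 to 31559969 on the minus strand (GRCm38, GENCODE M21). It had 7, 16, 7 and 16 counts in control replicates 1 to 4, and 1603, 1352, 2200 and 2180 counts in Klf4-transfected replicates 1 to 4. Each Klf4-transfected library was far above each control library, as the plot of each member by library shows. Groups that did not overlap were found for 26.1% of all tested genes.

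Slc26a4 averaged 0.238 ± 0.107 CPM without and 36.0 ± 6.45 CPM with the plasmid (SD, n = 4), a 151.5-fold ratio of means. The fitted log2 fold change was 7.23 (SE 0.12), with 6.97 (SE 0.16) in batch 1 and 7.45 (SE 0.15) in batch 2. By size of log2 fold change it stood at place 134 among the 3856 genes called higher. Only 2 of the 4 control libraries reached the filter's level of 0.204 CPM, so the gene entered the fit mainly through its Klf4-transfected libraries. In RNA from whole cultures, a few cells with much pendrin message and many cells with a little cannot be told apart.

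**Figure D1:**
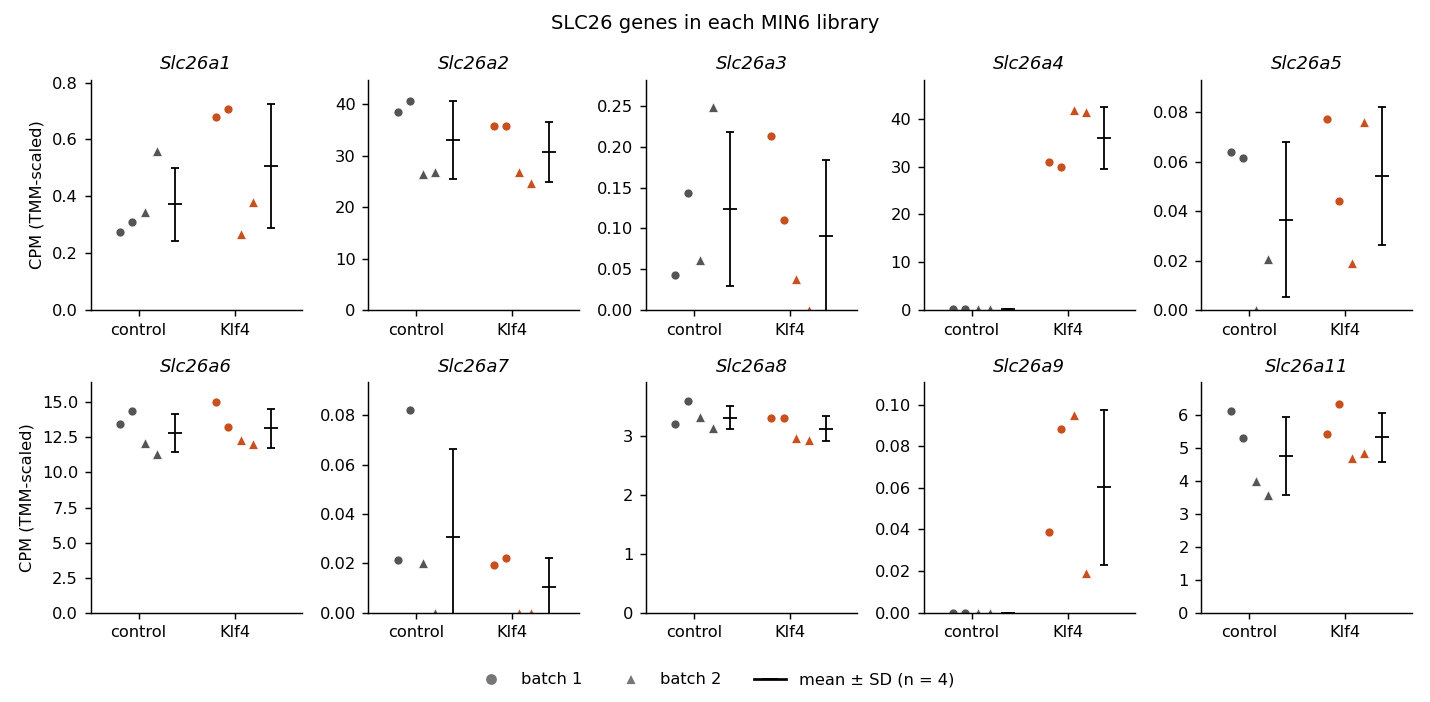
TMM-scaled CPM (vertical axes, each with its own range) of the 10 SLC26 genes in each control (grey) and Klf4-transfected (orange) library, with circles for batch 1, triangles for batch 2 and bars for mean ± SD (n = 4), drawn from 0 upward. Slc26a4 lies between 29.9 and 41.8 CPM in Klf4-transfected libraries and at most 0.331 CPM in controls, while Slc26a2, Slc26a6, Slc26a8 and Slc26a11 overlap between the groups.

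The other 5 tested members were not called with the plasmid, so of the 10 members 1 was called higher, 5 were not called and 4 were not tested. Since the family was picked for its response in this comparison, nothing is read from that count beside the 21.1% and 15.5% of all genes. The median log2 fold change was 0.11 over the 6 tested members and -0.01 over all tested genes.

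Sulfate transport is the best known task of Slc26a2 and Slc26a1. Slc26a2 supplies sulfate for the sulfation of proteoglycans in cartilage and is expressed in many tissues. Its gene lies on chromosome 18, from 61192919 to 61211612 on the minus strand. In control replicates 1 to 4 it had 38.5, 40.7, 26.4 and 26.8 CPM, and in Klf4-transfected replicates 1 to 4 it had 35.8, 35.8, 26.9 and 24.7 CPM. The groups overlapped, and within each group both libraries of batch 1 were higher than both of batch 2. Its log2 fold change with the plasmid was -0.10 (SE 0.04), with -0.15 in batch 1 and -0.04 in batch 2.

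Slc26a1, a sulfate and oxalate exchanger of liver and kidney, was close to the limit of detection. It had 13, 15, 17 and 27 counts in control replicates 1 to 4 and 35, 32, 14 and 20 counts in Klf4-transfected replicates 1 to 4. In batch 1 both Klf4-transfected libraries were above both controls, whereas in batch 2 one Klf4-transfected library was below both. The log2 fold change was 0.39 (SE 0.35) over both batches, made up of 1.24 (SE 0.44) in batch 1 and -0.48 (SE 0.45) in batch 2. Leaving out single libraries moved it between 0.16 (without control replicate 1) and 0.74 (without control replicate 4). Its exons (chromosome 5, 108669878 to 108675569, minus strand) share 141 bp with those of Idua on the opposite strand, and whether reads were counted by strand is not given in the sources used here, so its counts are uncertain. None of the other 9 members shares exon sequence with another annotated gene.

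Slc26a11 (chromosome 11, 119355557 to 119381079, plus strand), a sulfate transporter that has been placed in lysosomes, had 289, 258, 198 and 173 counts in control replicates 1 to 4 and 281, 287, 247 and 256 counts in Klf4-transfected replicates 1 to 4. That was 4.76 ± 1.17 and 5.33 ± 0.744 CPM (SD, n = 4), and the groups overlapped. The log2 fold change was 0.18 (SE 0.10), with 0.04 in batch 1 and 0.33 in batch 2.

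Of the exchangers of chloride for bicarbonate and other anions, Slc26a6, which also carries oxalate and is a main exchanger of the pancreatic duct, had the highest level in control cells. The gene lies on chromosome 9, from 108853283 to 108913049 on the plus strand. It had 634, 699, 597 and 546 counts in control replicates 1 to 4 and 776, 598, 646 and 634 counts in Klf4-transfected replicates 1 to 4. Levels of 12.8 ± 1.36 and 13.1 ± 1.36 CPM (SD, n = 4) gave a log2 fold change of 0.04 (SE 0.06), less than the spread between replicates. Slc26a8 (chromosome 17, 28637783 to 28690233, minus strand), best known from male germ cells, gave similar levels in both groups, with 151, 175, 164 and 152 control counts and 171, 150, 156 and 155 counts with the Klf4 plasmid. Its log2 fold change was -0.09 (SE 0.11), and its groups overlapped.

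Slc26a3, the chloride and bicarbonate exchanger of the colon, did not pass the filter. Its gene spans 31390871 to 31473917 on the plus strand of chromosome 12. It had 2, 7, 3 and 12 counts in control and 11, 5, 2 and 0 counts in Klf4-transfected replicates 1 to 4. It is the nearest member to Slc26a4 in the genome, with 45909 bp and 3 genes between them, of which 1, Cbll1, codes for protein. At a few counts per library no difference in Slc26a3 was detectable, while Slc26a4 on the same stretch of chromosome 12 had at least 1352 counts in each Klf4-transfected library.

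Slc26a7 (chromosome 4, 14502430 to 14621805, minus strand), an exchanger of stomach, kidney and thyroid, had 1, 4, 1 and 0 control counts and 1, 1, 0 and 0 counts with the Klf4 plasmid. Slc26a5 (prestin; chromosome 5, 21810655 to 21865604, minus strand) had 3, 3, 0 and 1 control counts and 4, 2, 1 and 4 counts with the plasmid. Neither passed the filter, and a difference in either was not detectable at this depth.

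Slc26a9 (chromosome 1, 131744022 to 131771504, plus strand), a chloride transporter and channel of the airway and stomach, had 0 counts in each of the 4 control libraries and 2, 4, 5 and 1 counts in Klf4-transfected replicates 1 to 4. The control total of 193419256 counts allows a level of up to 0.0155 CPM, taking 3 counts over the group as the floor for counting error. Against that floor the Klf4-transfected group was 3.82-fold higher, from 12 counts in all, whose own counting error is not included. Slc26a9 did not pass the filter, so it was not in the main fit. In a fit without the filter it was not called.

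Per kilobase of exon (RPKM, CPM divided by exon length), control cells held most Slc26a2, at 2.68 ± 0.611 RPKM, and Slc26a6, at 2.37 ± 0.252 RPKM (SD, n = 4), and the libraries of these neighbours overlapped. Slc26a11 followed at 1.32 ± 0.325 RPKM and Slc26a8 at 0.698 ± 0.0416 RPKM, each below every library of the member before it. Slc26a1 (0.0919 ± 0.0316 RPKM) and Slc26a4 (0.0765 ± 0.0343 RPKM) came next and overlapped. Slc26a3, Slc26a5, Slc26a7 and Slc26a9 closed the order, at 0.0195 RPKM or less.

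With the Klf4 plasmid Slc26a4 moved from the 6th to the 1st place, at 11.6 ± 2.08 RPKM (SD, n = 4), and its lowest library, at 9.61 RPKM, was above the highest library of Slc26a2, at 2.89 RPKM. The order of the next 5, from Slc26a2 at 2.49 RPKM through Slc26a6, Slc26a11 and Slc26a8 to Slc26a1 at 0.125 RPKM, was that of the control libraries. Of the counts of the 10 members, Slc26a4 made up 0.443% ± 0.217 without and 40.5% ± 7.99 with the plasmid (SD, n = 4). The share of Slc26a2 went from 60.0% to 34.5%, while its own CPM differed by less than the spread between replicates. The summed level of the members was 46.0 to 64.8 CPM in control and 86.3 to 91.6 CPM in Klf4-transfected libraries.

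**Figure D2:**
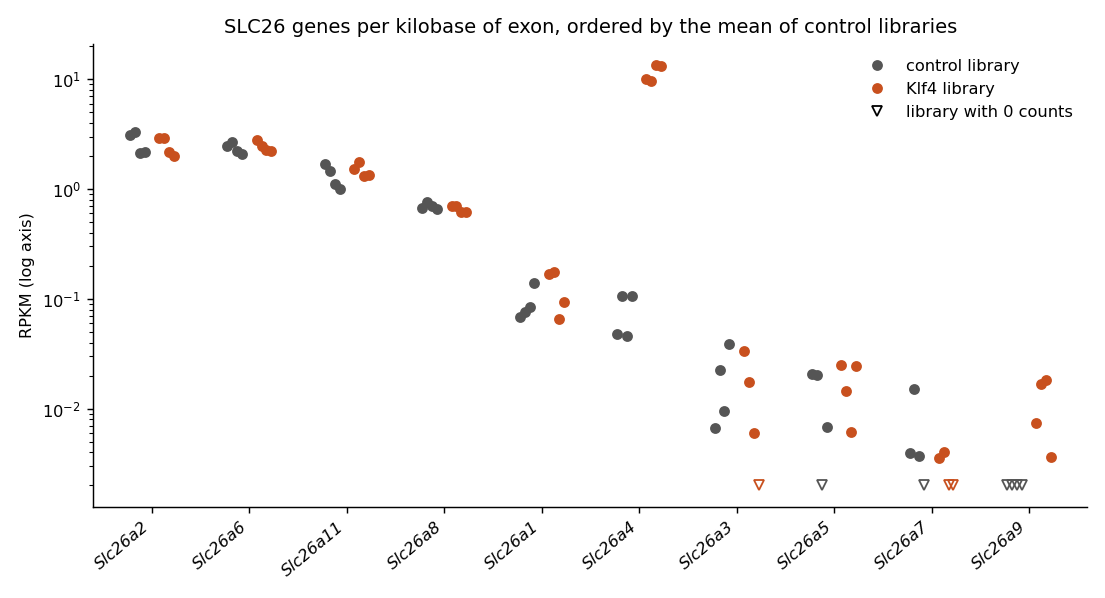
RPKM on a log axis for each SLC26 gene, ordered by the mean of the control libraries, with 1 point per control (grey) or Klf4-transfected (orange) library and open triangles for libraries with 0 counts. Slc26a4 moves from the 6th to the 1st place, from 0.0765 to 11.6 RPKM on average.

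The batches could be compared at equal plasmid, a contrast that played no part in choosing the family. In batch 2, 3 of the 6 tested members were lower and 1 was higher, where 11.6% of all tested genes were called lower and 13.4% higher by the same test. The members' median log2 difference was -0.27, against 0.01 over all tested genes. The 3 lower members were Slc26a2, Slc26a6 and Slc26a11, which hold most of the family's message in control cells.

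Slc26a2 fell from 37.7 CPM in batch 1 to 26.2 CPM in batch 2 over both groups, a log2 change of -0.52 (SE 0.04, edgeR adjusted p = 1.55e-08). The change was -0.57 within the control libraries and -0.47 within the Klf4-transfected ones. Slc26a11 fell by 0.44 on the log2 scale (SE 0.10, edgeR adjusted p = 0.00242), with -0.59 in control and -0.30 in Klf4-transfected libraries. Slc26a6 fell by 0.23 (SE 0.06, edgeR adjusted p = 0.00814), with -0.25 and -0.22. This last call was lost without Klf4-transfected replicate 1, at -0.19 (adjusted p = 0.0588).

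Slc26a4 was higher in batch 2, by 0.44 (SE 0.08, edgeR adjusted p = 0.000262). Its Klf4-transfected libraries held 31.0 and 29.9 CPM in batch 1 against 41.8 and 41.3 CPM in batch 2, a log2 difference of 0.45 (SE 0.07). In the control libraries the batches overlapped, at 0.149 and 0.329 CPM against 0.142 and 0.331 CPM, with a log2 difference of -0.03 (SE 0.44). Klf4 message was also higher in batch 2 of the Klf4-transfected group, at 4903 and 5853 CPM against 4873 and 4532 CPM, and its part in the Slc26a4 difference was not tested. Slc26a1 (-0.30, SE 0.35, adjusted p = 0.598) and Slc26a8 (-0.12, SE 0.11, adjusted p = 0.494) did not pass the batch test.

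**Figure D3:**
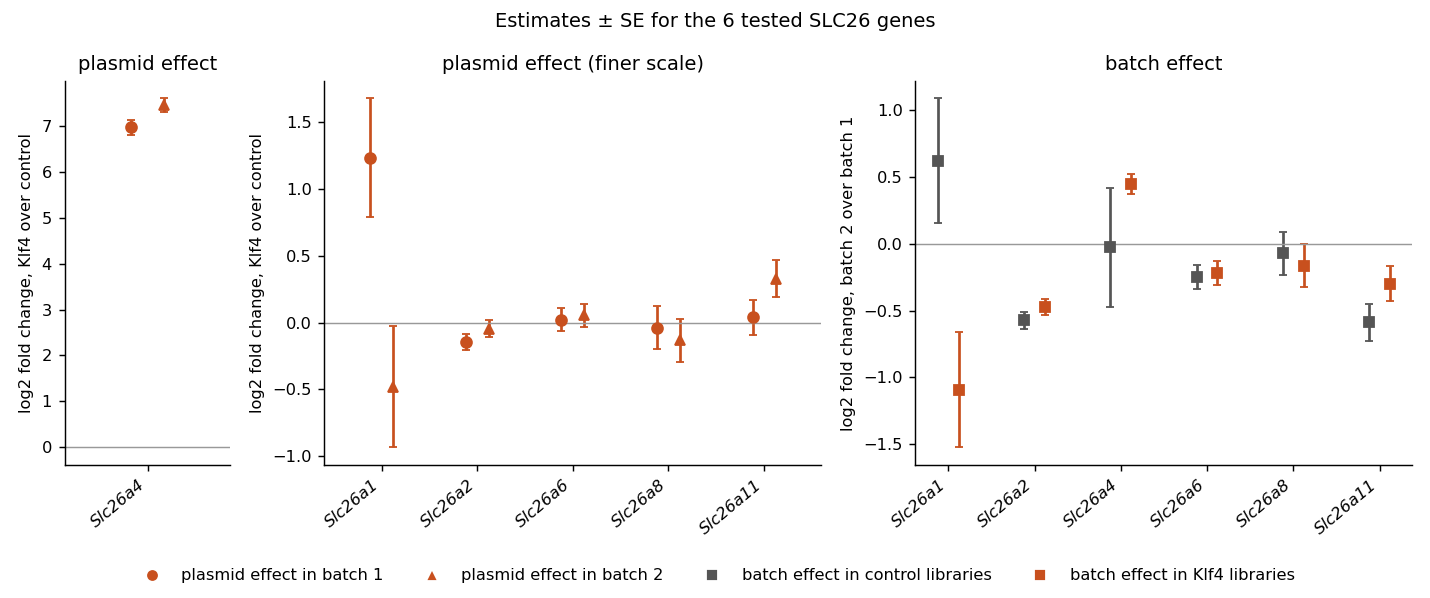
Fitted log2 fold changes ± SE for the 6 tested members: Klf4-transfected over control within each batch (left and middle, on different scales) and batch 2 over batch 1 within each group (right). Slc26a4 is near 7 in both batches, Slc26a2, Slc26a6 and Slc26a11 are below 0 for batch in both groups, and Slc26a1 has opposite signs in the batches.

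The effect of the plasmid did not pass the test of a difference between batches for any of the 6 tested members, where 0.766% of all tested genes did. The count was 0 by edgeR, DESeq2 and limma-voom, and 1 member, Slc26a1, passed at an unadjusted p under 0.05. Its difference of -1.72 (SE 0.63) had an unadjusted p of 0.0111 and an adjusted p of 0.276. For Slc26a4 the difference was 0.48 (SE 0.45, adjusted p = 0.780), with no more than 16 control counts in a library behind it. That value ran from -0.23 without control replicate 2, through -0.03 without control replicate 3 and 0.91 without control replicate 1, to 1.20 without control replicate 4.

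The genes whose log2 CPM ran most closely with that of Slc26a4 over the 8 libraries, among 14267 genes of at least 1 CPM on average, were Lgals7, B4galt5, Mal, Asb2 and Chp2. Pearson's r was 0.9992 for Lgals7 and for B4galt5, 0.9987 for Mal, 0.9982 for Asb2 and 0.9981 for Chp2. All 8 points share the split into control and Klf4-transfected libraries, so these values describe mostly that split. Their sizes of change were far apart. Mal, a membrane protein of apical sorting, went from 0.0360 to 7.69 CPM, Chp2, a calcium-binding partner of sodium-proton exchangers, from 0.0776 to 5.20 CPM, and B4galt5, a galactosyltransferase, from 43.0 to 50.8 CPM.

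Other genes of anion and pH transport, and of the cells in which SLC26 genes are best known, were counted in 9 lists of 122 genes, of which 89 passed the filter. With the Klf4 plasmid 36 of the 89 rose and 12 fell (edgeR, adjusted p under 0.05), beside 21.1% and 15.5% of all tested genes, and 41 were not called. The lists were chosen with earlier results of these data known, so these counts are a description and nothing is read from them beside those shares. The lists' median log2 fold change was 0.11. Of the 36, 12 had fewer than 4 control libraries at the filter's level, 6 of them none, so those genes passed the filter through the group in which they were high.

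The SLC4 family also carries bicarbonate, in exchange for chloride or together with sodium, and 4 of its 9 tested genes rose while 2 fell. Slc4a11, a proton and water transporter of corneal endothelium and kidney, had 62, 50, 39 and 36 counts in control and 1472, 1170, 1759 and 1856 counts in Klf4-transfected replicates 1 to 4. The groups did not overlap, and it rose by 4.98 on the log2 scale (SE 0.11, edgeR adjusted p = 1.46e-19). Slc4a4, the electrogenic sodium-bicarbonate cotransporter of duct and kidney, rose by 2.39 (SE 0.24) from 0.389 to 2.05 CPM. Slc4a1, the anion exchanger of red cells and of acid-secreting intercalated cells, rose by 1.77 (SE 0.19) from 0.711 to 2.46 CPM. Slc4a10 fell by 0.31 (SE 0.03) from 75.4 to 61.0 CPM, and Slc4a7 fell by 0.15 (SE 0.03), both sodium-coupled bicarbonate carriers.

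Sodium-proton exchangers and the PDZ scaffolds that hold transporters at the apical membrane gave 3 higher and 1 lower of 9 tested. The scaffolds moved most. Slc9a3r2 rose by 1.30 (SE 0.08) from 5.77 to 14.3 CPM, and Slc9a3r1 rose by 0.62 (SE 0.03) from 73.0 to 112 CPM. Slc9a9, an endosomal exchanger, fell by 0.22 (SE 0.05).

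Of 19 tested chloride channel genes 7 rose and 3 fell. Clcn2, a channel of the plasma membrane, went from 14.1 ± 2.08 to 47.1 ± 3.30 CPM (SD, n = 4), a rise of 1.75 on the log2 scale (SE 0.07, edgeR adjusted p = 3.95e-15). The volume-regulated channel subunits Lrrc8e and Lrrc8c rose by 3.51 (SE 0.34) and 2.93 (SE 0.39) from 0.129 and 0.0831 CPM. The falls were small: Clcn6 by 0.22, Clcn5 by 0.09 and Clcn3 by 0.09, all exchangers of endosomes and lysosomes. Only 1 of these 3 falls was called with TMM factors from abundant genes, without the batch term, or at an adjusted p under 0.01.

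Among cation-chloride cotransporters and their kinases, 5 of 15 rose and 4 fell. Slc12a7, a potassium-chloride cotransporter, rose by 3.20 (SE 0.22) from 0.409 to 3.82 CPM, Slc12a8 by 1.38 (SE 0.29) and the kinase Wnk2 by 0.69 (SE 0.04). Slc12a3, the thiazide-sensitive sodium-chloride cotransporter, fell by 0.28 (SE 0.11), the kinase Wnk3 by 0.28 (SE 0.04) and Slc12a5, a neuronal potassium-chloride cotransporter, by 0.13 (SE 0.04). The count of falls went from 4 to 1 in the same 3 settings, and to 2 with a filter at 1 CPM, without Klf4-transfected replicate 2 or without Klf4-transfected replicate 4.

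**Figure D4:**
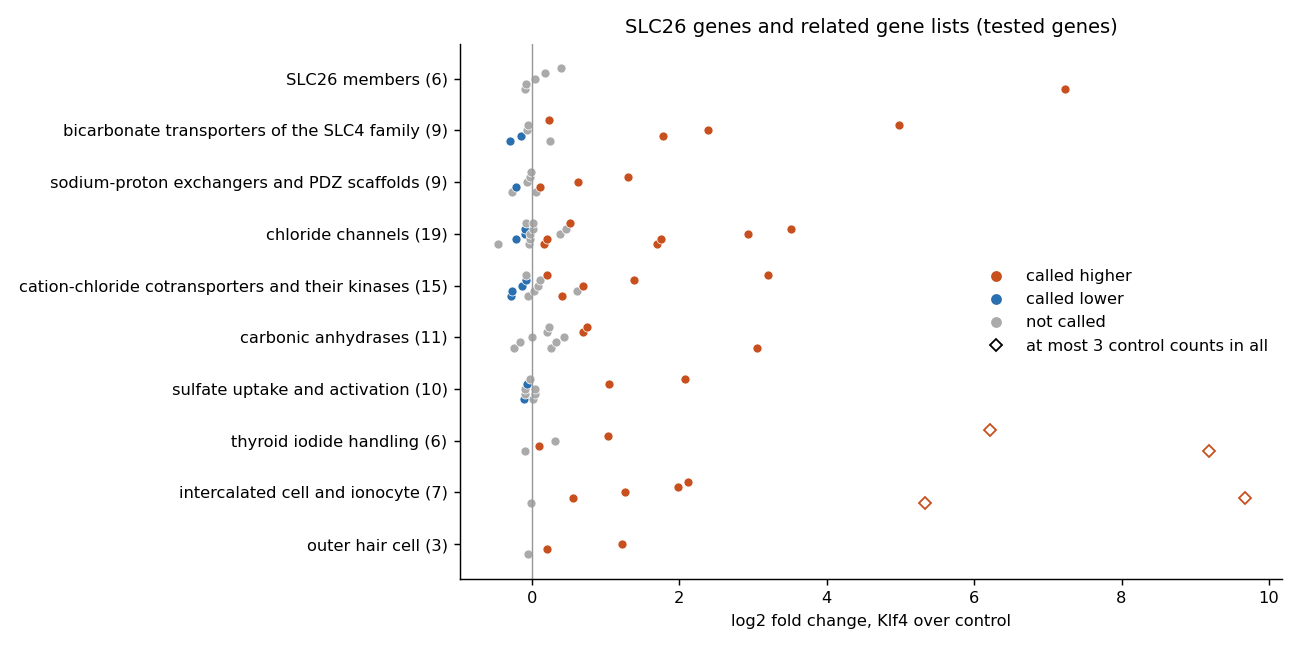
Log2 fold change, Klf4-transfected over control (horizontal axis), of each tested SLC26 gene and of each tested gene of the 9 related lists, with the number tested in brackets and colour for the edgeR call. Open diamonds mark 4 genes with at most 3 control counts in all, whose fitted values depend on the prior count. Calls below 0 lie close to 0. Of the SLC26 genes only Slc26a4, on which the family was selected, was called, and Slc26a1, not called, lies at 0.39.

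Carbonic anhydrases make the bicarbonate that such exchangers carry, and 3 of 11 tested rose. Car14, a membrane-bound form, rose by 3.05 (SE 0.30) from 0.187 to 1.56 CPM, Car7 by 0.74 (SE 0.24) and Car11, which lacks enzyme activity, by 0.69 (SE 0.11). Without the batch term 1 of the 3 was called, and 5 were called without the filter or without Klf4-transfected replicate 2. Of 10 tested genes of sulfate uptake and activation 2 rose, Sult1a1, a sulfotransferase, by 2.07 (SE 0.51) and Slc13a4, a sodium-sulfate cotransporter, by 1.05 (SE 0.32). The 2 that fell did so slightly, Impad1 by 0.10 (SE 0.03) and Papss2, the maker of active sulfate, by 0.07 (SE 0.03) from 727 to 691 CPM. Neither rise was tested under a filter at 1 CPM, and neither fall was called with TMM factors from abundant genes or without the batch term. Leaving out single libraries also took these counts to 1, without control replicate 4 for the rises and without control replicate 3 or Klf4-transfected replicate 4 for the falls.

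Pendrin works beside other genes of iodide handling in the thyroid, and 4 of the 6 tested genes of that list rose and 0 fell. The other 7 genes of the list did not pass the filter, and 21.1% of all tested genes were called higher. Of the 4 that rose, Nkx2-1 and Duox1 had 0 control libraries at the filter's level. They passed it through the group in which they were high, so a fall in them could not be found. Slc5a5, the sodium-iodide symporter, had 90, 62, 67 and 85 control counts and 182, 128, 155 and 189 counts in Klf4-transfected replicates 1 to 4, a rise of 1.03 on the log2 scale (SE 0.15, edgeR adjusted p = 1.03e-05). Nkx2-1, a transcription factor of thyroid, lung and forebrain, had 0 counts in the control libraries and 61, 69, 89 and 79 in the Klf4-transfected ones. That was 94.9-fold above a floor of 3 counts over the control group. Duox1, an oxidase that makes hydrogen peroxide for iodination, had 1 control count and 115 counts with the plasmid, a ratio of 109.9 with an exact 95% counting interval of 19.3 to 4378. Thyroid-defining Tg did not pass the filter, with 5, 27, 14 and 4 control counts against 10, 7, 9 and 14 with the plasmid.

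Intercalated cells of the kidney and ionocytes of airway and inner ear are the other cells known for pendrin. Of the 7 tested genes of their list 6 rose and 0 fell, while 7 others did not pass the filter. Over all tested genes 21.1% were called higher. Of the 6 that rose, 3 had fewer than 4 control libraries at the filter's level, and 2 of these, Foxi1 and Rhcg, had none. Those genes passed the filter through the group in which they were high, so the count is a description. Foxi1, the forkhead transcription factor that marks these cells, had 0 counts in each control library and 83, 82, 101 and 154 counts in Klf4-transfected replicates 1 to 4. That is 2.06 ± 0.585 CPM (SD, n = 4), 133.8-fold above a floor of 3 counts over the control group. Rhcg, an ammonia channel, had 2 control counts and 105 counts with the plasmid, a ratio of 50.2 with an exact 95% counting interval of 13.5 to 420.

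The other 4 genes that rose complete the list, and all but Atp6v0a4 were named after their values were seen. The proton pump subunits Atp6v0a4 and Atp6v1c2 rose by 2.11 (SE 0.26) and 1.98 (SE 0.27), the transcription factor Ascl3 by 1.26 (SE 0.44) and Tfcp2l1, a regulator of collecting duct cells, by 0.56 (SE 0.07). Hmx2 was not called, at -0.01. The proton pump subunit Atp6v1b1, which is typical of intercalated cells, had 0 counts in control and 3, 8, 6 and 0 counts in Klf4-transfected libraries, and Atp6v1g3 and Foxi2 had 0 counts in all 8.

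**Figure D5:**
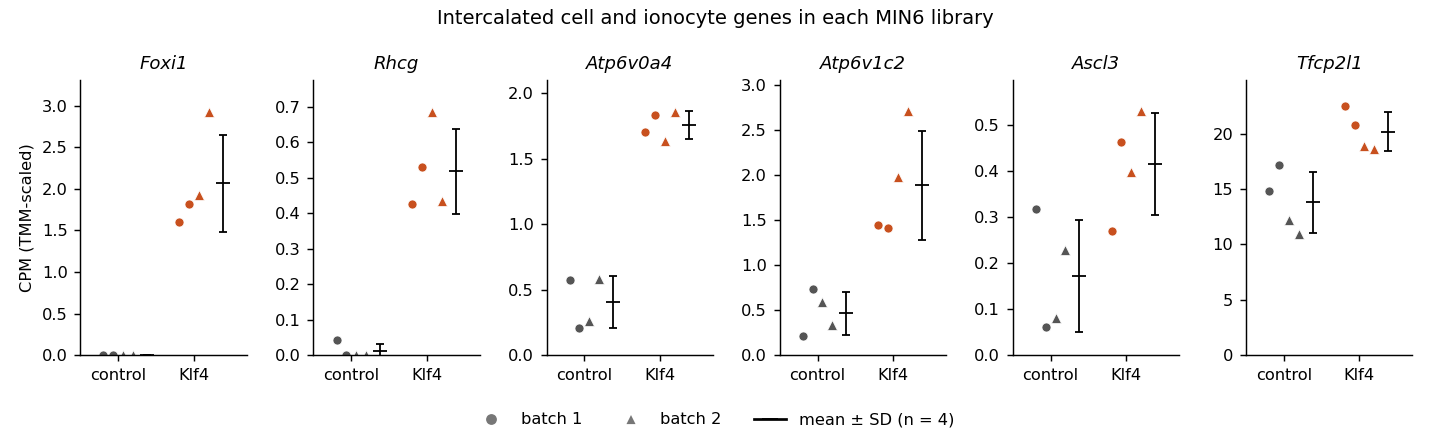
TMM-scaled CPM (vertical axes, each with its own range) in each control (grey) and Klf4-transfected (orange) library of the 6 intercalated cell and ionocyte genes that rose, with circles for batch 1, triangles for batch 2 and bars for mean ± SD (n = 4). Foxi1 is at 0 in each control library and at 1.61 to 2.92 CPM with the plasmid, and Ascl3 overlaps between the groups.

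Outer hair cells, the home of prestin, gave 2 higher and 0 lower of 3 tested genes. The calcium pump Atp2b2, which is not particular to hair cells, rose by 0.20 (SE 0.04). The thyroid, intercalated cell, outer hair cell and carbonic anhydrase lists are the ones in which no gene was called lower. In them the count lower was 0 by edgeR, DESeq2 and limma-voom, and 0 at an unadjusted p under 0.05. All 12 falls were in the remaining lists. In the named lists 4, 6, 1 and 2 genes, in that order, had no control counts at all. No fall can be seen in such genes, so nothing is read from the 0.

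Markers of other cell types moved with the plasmid at low levels. The 5 ductal markers summed to 2.57 to 4.36 CPM in control and 6.86 to 7.93 CPM in Klf4-transfected libraries, and 2 rose, among them Krt19 by 3.76. The 5 fibroblast markers went from 2.65 to 3.86 CPM in control to 5.80 to 7.22 CPM, with 2 higher, and the 3 endothelial markers from 3.82 to 4.15 CPM to 4.49 to 4.95 CPM, with 1 higher. The 5 alpha cell markers summed to 589 to 710 CPM in control and 603 to 705 CPM with the plasmid, with 2 higher. The 3 immune markers summed to 5.92 to 6.53 CPM and 5.55 to 7.29 CPM, and the 2 tested were not called.

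The 5 acinar markers summed to 1.42 to 3.92 CPM in control and 1.68 to 3.30 CPM with the plasmid. Delta cell (2 genes) and PP cell (1 gene) markers stayed at or under 0.276 CPM in all libraries. Of the 9 β cell markers 5 were lower and 4 were not called. Over all tested genes 21.1% were called higher and 15.5% lower. The 5 falls were small, from -0.07 (Iapp) to -0.22 (Slc30a8) on the log2 scale. The defining endothelial markers Cdh5 and Kdr, the acinar marker Amy2b and the alpha cell marker Irx1 were at 0 in all 4 control libraries, and no marker was at 0 in all 8. In Klf4-transfected replicates 1 to 4 Cdh5, the endothelial marker called higher, had 14, 28, 19 and 19 counts. It passed the filter through these libraries. Irx1 had 2, 0, 6 and 8 counts there, Kdr 2, 0, 0 and 2, and Amy2b 0, 1, 0 and 0. The part of these markers' cell types in the levels of Slc26a4 or of the related genes was not tested.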

How the data were processed

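Counts per gene were deposited by the authors as whole numbers, 1 column per library, not normalised, from reads trimmed with cutadapt per the name of the deposited table. FastQC, STAR, featureCounts, edgeR and the mm10 build are named in the submitters' processing notes, without versions, and the strand setting and annotation are not given in the sources used here. All 55536 pairs of gene ID and symbol matched GENCODE M21 (GRCm38), which gave coordinates and exon lengths. Members and gene lists were chosen with earlier results of these data known.

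Counts were fitted in edgeR 4.0.16 (R 4.3.3) with TMM factors (0.996 to 1.01), filterByExpr (minimum count 10, which took out 37270 genes and left 18266) and terms for batch and plasmid, and tested with the quasi-likelihood test, adjusted by Benjamini-Hochberg over all tested genes. An interaction term gave within-batch values. The procedure was tested on simulated data. CPM and RPKM were computed here from the counts. Intervals cover counting error only, and floors cover only that of the control counts.

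Genes named were the 10 members, Klf4, up to 3 genes per list and direction with the largest change past an adjusted p of 0.05, and the 5 genes most correlated with Slc26a4. Others were named after their values were seen or as context. They were Atp6v1c2, Ascl3, Tfcp2l1, Hmx2, Atp6v1b1, Atp6v1g3, Foxi2, Tg, Pdzk1, Ttyh1, Cbll1, Idua and the cell type markers. Single results of some list genes are not reported here, and counts over whole lists include them. Alternatives were other scalings, filters and thresholds, DESeq2 1.42.0, limma 3.58.1 (voom), no batch term, a replicate block and omission of each library.

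Same-numbered libraries of the 2 groups, whose numbers are those of the sample titles and nest in the labelled batches, had correlated deviations from their group means (0.613, 0.459, 0.568 and 0.517 for numbers 1 to 4, over 10482 genes). With batch means taken out, it was -0.0445 for numbers 1 and 2 and 0.0787 for numbers 3 and 4, so the pairing by number reflects batch, which the model holds.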

Additional observations from a re-analysis of the deposited data

Results flagged for a closer look

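In 4-library groups, 106 sets of values were checked for a single library far from the other 3 (Dixon's test at its usual level), and 5 were found, where chance gives about 5.3. Slc9a9 was at 19.8 CPM in Klf4-transfected replicate 1, against 18.0 to 18.2 CPM in the others. Slc12a5 was at 53.0 CPM in Klf4-transfected replicate 4, against 47.7 to 48.5 CPM. Duox1 was at 0.0212 CPM (1 count) and Rhcg at 0.0425 CPM (2 counts) in control replicate 1, while the other 3 control libraries had 0 counts of each. The total of Klf4-transfected replicate 2 was 45417853 counts, against 51891997 to 52731176. No member of the SLC26 family was among them.

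The effect of the plasmid differed between batches for Klf4 and 3 other named genes, by the interaction test in edgeR. For Klf4 it was 6.79 in batch 1 and 7.16 in batch 2, a log2 difference of 0.37 (adjusted p = 0.0057). For Slc4a11 the difference was 0.94 (4.54 and 5.48, adjusted p = 0.0446), for Clcn2 0.46 (1.52 and 1.98, adjusted p = 0.0186) and for Wnk2 0.27 (0.55 and 0.82, adjusted p = 0.0413). All of these were larger in batch 2, and each was higher with the plasmid in every library of both batches. In the other direction, Ttyh1 of the chloride channel list, named after its values were seen, had 0.14 in batch 1 and -0.12 in batch 2 (difference -0.26, adjusted p = 0.0135), and the β cell marker Mafa had -0.05 and -0.30 (difference -0.25, adjusted p = 0.00817). Over all tested genes, 140 passed this test.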

How the results depend on the processing

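Under every alternative run the count of members higher with the plasmid was 1 and that of members differing between batches 0, and no member value past its threshold changed sign. The 1 was Slc26a4, on which the family was selected in this same comparison, so nothing is read from that count staying the same. Values that did not pass did change sign when single libraries were left out: the plasmid effect of Slc26a6 (-0.01 to 0.07), its difference between batches (-0.06 to 0.13) and that of Slc26a4 (-0.23 to 1.20). The batch difference of Slc26a1 ran from -0.63 to -0.02. The log2 fold change of Slc26a4 lay between 6.95 (without control replicate 3) and 7.48 (without control replicate 2). Leaving out each library gave 0 to 1 members lower with the plasmid, the 1 being Slc26a2 at -0.14 without Klf4-transfected replicate 3, and 2 to 3 members lower in batch 2. Related genes lower with the plasmid numbered 12, but 5 with TMM factors from genes of high abundance, 5 without the batch term and 6 at an adjusted p under 0.01. Over all genes, those TMM factors gave 4387 higher and 1638 lower against 3856 and 2828, and dropping the batch term gave 2957 and 1159. With the replicate block in place of batch, 1 member was higher, 0 were lower, and 36 related genes were higher and 10 lower, so it changed no call of a member. The order of the control levels was the same per coding length. Depth limits Slc26a3, Slc26a5, Slc26a7 and Slc26a9, with at most 12 counts in any library.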
